A study of Mus musculus with 25 samples.

Results

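Glp1r, the gene for the receptor of glucagon-like peptide 1 (GLP-1), was read in 10 of 25 single cells picked from the mouse arcuate nucleus and median eminence, and these 10 Glp1r cells were compared with the other 15 across all genes. The cells were chosen by their Glp1r values: a Glp1r cell held the gene at 10 RPKM or more (a read count corrected for gene length and sequencing depth), and the other cells listed it at 0. All donors were adult male RIP-Cre mice of the (C57BL/6 x DBA)F2 strain with an average age of 63 days, and tissue of 2 mice was pooled. RIP-Cre mice carry Cre recombinase under a rat insulin promoter, and every picked cell, with or without Glp1r, was GFP-positive from an adeno-associated virus that makes the protein only after Cre has acted. The cells therefore sample the neurons in which Cre and virus met, not the arcuate nucleus at large. No source used here says which mouse gave which cell. The 25 cells are 1 pooled sample, so cells are not replicates and no test between the 2 sets of cells was made; every difference below describes these cells.

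The GLP-1 receptor is a class B G protein-coupled receptor that acts through Gs, adenylyl cyclase and cyclic AMP. It binds GLP-1 from gut and brainstem and the drugs made on its pattern, and arcuate neurons that carry it are known as targets of those drugs in the control of appetite. FGF receptor 1, encoded by Fgfr1, is a receptor tyrosine kinase that signals through the adaptors FRS2 and FRS3, Ras and MAP kinases, and for the endocrine factor FGF21 it needs the co-receptor β-klotho.

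Depth and cell quality overlapped between the 2 sets of cells. The estimated depth was 892700 to 3052600 reads in Glp1r cells (median 1833850) and 1220700 to 2258500 in the others (median 1823000), and 3843 to 6183 genes reached 10 RPKM in a Glp1r cell (median 4990.5) against 4350 to 5700 in the others (median 4896). Glp1r cells held 7 to 11 of 12 neuron markers (median 10), and the others 7 to 12 (median 10). Malat1, an abundant nuclear RNA, was under 20 RPKM in Glp1r cells 6 and 29 and in the other cells 1, 3, 5 and 31. The summed markers of other cell types overlapped between the sets. Oligodendrocyte markers summed to 0 to 68.6 RPKM in Glp1r cells (median 12.7) and 8.70 to 103 in the others (median 29.4), with Mbp in 4 and 10 cells and 4 of the 7 markers at 0 in every cell. The part of this RNA in the results was not tested. Markers of oligodendrocyte precursors were at 0 in all cells, and microglial markers summed to at most 0.180 RPKM in a Glp1r cell and 26.5 in another. Endothelial and mural markers summed to 0 to 35.6 RPKM in Glp1r cells (median 0.490) and 0 to 26.9 in the others (median 0.420). Of these, Pecam1 was at 10 RPKM in 2 and 2 cells. Astrocyte markers summed to 0 to 189.8 RPKM in Glp1r cells (median 82.8) and 0 to 332 in the others (median 75.8), and of the 7 only Aldoc, held by 8 of 10 and 12 of 15 cells, reached 10 RPKM in at least 3 cells. Tanycyte markers summed to at most 102 and 82.3 RPKM, with medians of 0 and 2.32. Pituitary and pars tuberalis markers summed to 19.4 to 337 RPKM (median 132) and 186 to 492 (median 254), with only Chga, which neurons express too, at 10 RPKM in 3 or more cells. Markers of pancreatic β cells, in which the rat insulin promoter is active, were at 0 in all Glp1r cells and summed to at most 58.3 RPKM in another cell.

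Glp1r lies on chromosome 17 at 30901817 to 30940791 on the plus strand (GRCm38). It measured 38.5, 26.5, 119.7, 116, 103, 29.5, 115, 39.6, 63.0 and 56.6 RPKM in cells 2, 4, 6, 9, 11, 14, 29, 32, 34 and 43, a median of 59.8 RPKM. The split left a wide gap. The lowest Glp1r cell, cell 4, stood at 26.5 RPKM, and no cell fell between that and 0. An estimated 293 to 1835 reads lay behind each of these values (median 462), whereas 3 reads would have read as only 0.229 to 0.423 RPKM in the other cells. A transcript lost before amplification would also be listed at 0. Cells 6, 9, 11 and 29 formed the upper range, above 100 RPKM, and cells 2, 4, 14 and 32 the lower. Among 91 listed genes for hormone, peptide and transmitter receptors, Glp1r ranked 2nd in cell 29, 3rd in cells 6 and 11 and 15th in cell 4, and in no cell did it rank highest. Smart-Seq2 marks no strand, and 2 annotated genes overlap Glp1r on the opposite strand, so their reads cannot be told from its own.

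Fgfr1 reached 10 RPKM in every Glp1r cell and in a minority of the others. In the Glp1r cells, in the order above, it measured 41.5, 33.5, 12.1, 17.1, 20.4, 26.8, 29.1, 64.3, 82.7 and 19 RPKM, a median of 28.0. In the other cells it reached 10 RPKM in cells 7, 10, 13, 24 and 25, at 25.6, 27.4, 44.8, 36.6 and 14.0 RPKM. Another 4 cells held traces of 0.10 to 5.32 RPKM and 6 listed it at 0, so the median was 0.590. Thus 10 of 10 Glp1r cells (100%, exact Clopper-Pearson 95% interval 69.2 to 100%) and 5 of 15 others (33.3%, interval 11.8 to 61.6%) reached the level, a difference of 66.7 percentage points. The 2 sets overlapped in level, since cell 13 exceeded 8 of the 10 Glp1r cells. Higher Glp1r did not go with higher Fgfr1: the 4 cells with Glp1r above 100 RPKM had Fgfr1 at 12.1 to 29.1 RPKM, and the other 6 had it at 19 to 82.7. The pair was picked in earlier work on these cells, so the difference is a description.

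**Figure D1:**
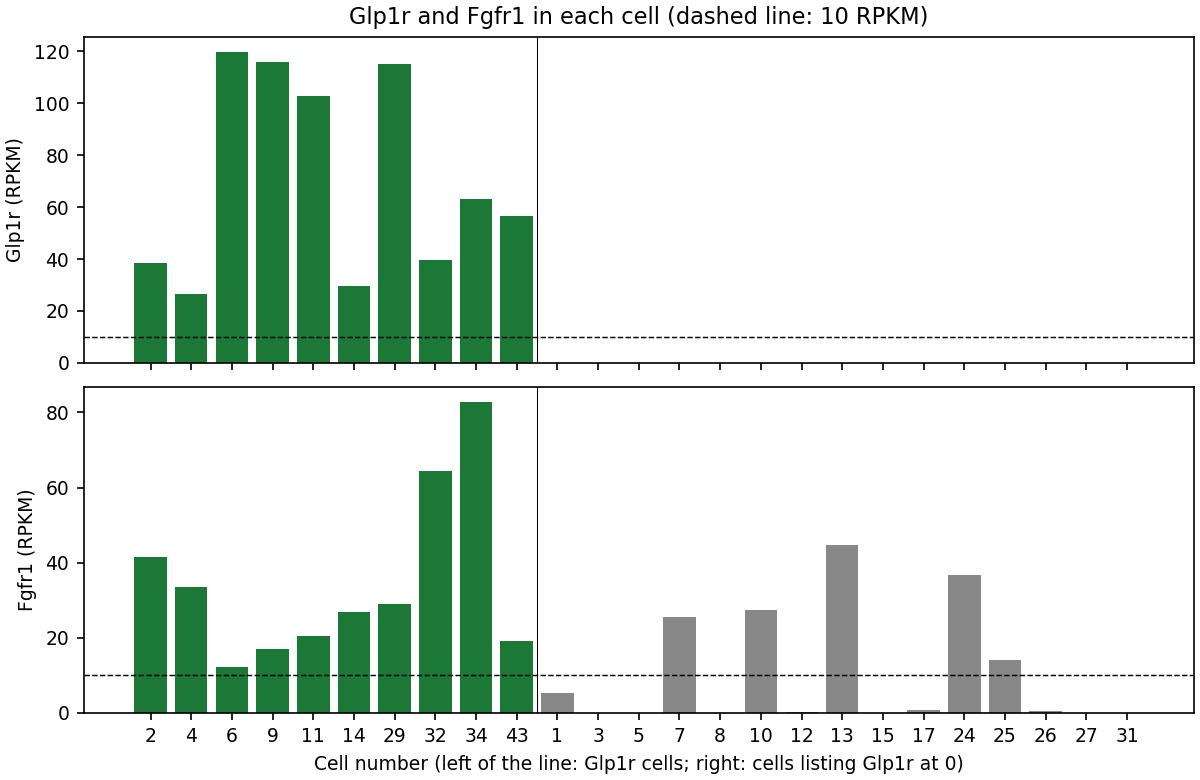
Glp1r (upper panel) and Fgfr1 (lower panel) in RPKM in each of the 25 cells, as bars, with the 10 Glp1r cells in green to the left of the line and the 15 cells listing Glp1r at 0 in grey to the right. Every green bar of Fgfr1 reaches the dashed 10 RPKM line, as do the grey bars of cells 7, 10, 13, 24 and 25.

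The difference in Fgfr1 moved with another division of the cells. Lhx1, a LIM homeodomain factor, was at 10 RPKM or more in 6 of the 15 other cells (3, 5, 8, 12, 15 and 26) and in 1 Glp1r cell (11). None of those 6 cells reached the level for Fgfr1, and the highest value among them was 0.590 RPKM. Glp1r cell 11, with Lhx1 at 87.2 RPKM, held Fgfr1 at 20.4 RPKM. Of the other 9 cells that lacked Glp1r, 5 held Fgfr1. With the Lhx1 cells left out, Fgfr1 was in 100% of Glp1r cells and 55.6% of the others, a difference of 44.4 points, short of the 50 points used below. Counting cells at 20 RPKM or more gave 70.0% against 26.7%, or 43.3 points, also short of it. Without the cells low in Malat1 the shares were 100% and 45.5%, a difference of 54.5 points. Fgfr1 lies on chromosome 8 at 25513654 to 25575718 on the plus strand, and Gm16159 overlaps it on the other strand.

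Across the 9782 genes that reached 10 RPKM in at least 3 cells, few separated the sets. A gene was counted as past the detection rule where the share of cells at 10 RPKM or more differed by 50 points or more, which takes at least 5 Glp1r cells for a higher gene and at least 8 other cells for a lower one. Past it were 32 genes higher in Glp1r cells (0.327% of 9782) and 23 lower (0.235%). By the level rule, a difference of 2 or more in mean log2(RPKM + 1), 94 genes were higher (0.961%) and 109 lower (1.11%), and 24 and 19 genes met both rules. When the counting was checked on values shuffled over the cells, about as many genes were past these rules, so being past one does not by itself set a gene apart. No gene had groups that did not overlap (0%). The median difference over all 9782 genes was 0 points and -0.01 on the log2 scale. Of the 1136 genes that all 10 Glp1r cells held, 804 were also in every other cell, and only Fgfr1 and Pitpnb were in fewer than 8 of the 15. The counts depend on which cells are in and how many. Past the detection rule were 60 and 75 genes without the cells low in Malat1 (8 Glp1r cells against 11). The counts were 104 and 50 without the cells holding Sst (8 against 12) and 46 and 61 without the Lhx1 cells (9 against 9). With Glp1r cells taken from 50 RPKM (6 against 15) they were 120 and 80. The part that smaller sets play in these counts was not tested. The level rule is as loose, with 173 lower genes without cell 29 alone and with 0 higher and 1 lower genes at a pseudocount of 10 RPKM.

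**Figure D2:**
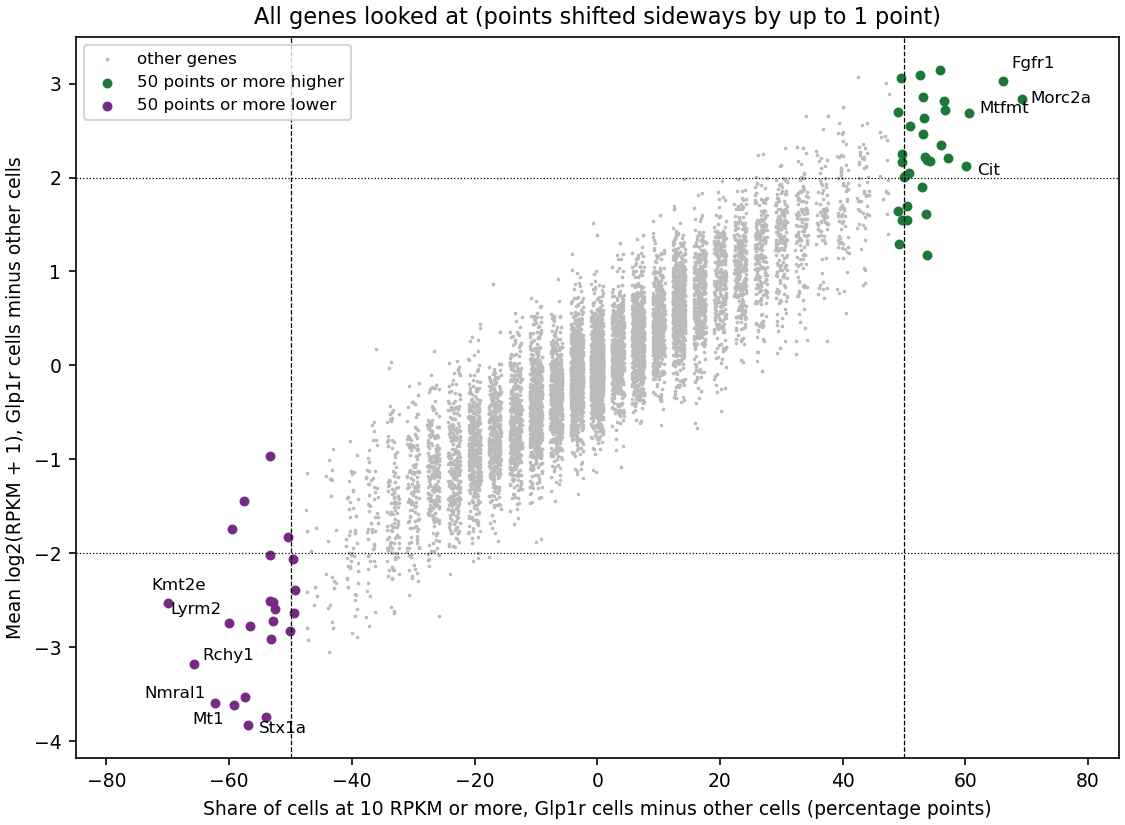
Each point is 1 of 9782 genes, with the difference in the share of cells at 10 RPKM or more on the x axis (percentage points, Glp1r cells minus others) and the difference in mean log2(RPKM + 1) on the y axis; dashed and dotted lines mark 50 points and 2 on the log2 scale. Most genes lie near 0 on both axes, and the 32 green and 23 purple genes past the detection rule lie at the 2 ends of one cloud, with Morc2a and Fgfr1 at the far right and Kmt2e at the far left.

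Morc2a, Mtfmt and Cit were the genes at the level in at least 6 Glp1r cells and in none of the others. Each met the 3-cell filter through Glp1r cells alone, which fixed the direction of its difference. Morc2a, an ATPase of the MORC family linked to chromatin silencing, measured 21.5, 17.8, 21.1, 0, 40.1, 0, 58.5, 27.9, 36.3 and 0 RPKM in the Glp1r cells and at most 9.77 in the others. That placed it at the level in 7 of 10 and 0 of 15 cells (70.0%, interval 34.8 to 93.3%, against 0%, interval 0 to 21.8%). This was the most of any gene by points, although 9.77 RPKM in cell 1 lies just under the level. Morc2a was picked from all genes looked at by this same difference, which the intervals do not allow for. It also stayed past the rule at 5 and 20 RPKM, and at 1 RPKM its difference was exactly the 50 points of the rule. Mtfmt, which formylates the initiator methionyl-tRNA of mitochondria, was at the level in 6 of 10 and 0 of 15 cells, with 49.6 RPKM in cell 43 and at most 1.09 in the others. Cit, the citron kinase known from cell division, was in 6 of 10 and 0 of 15, with medians of 11.8 and 1.02 RPKM and a highest other cell at 9.23.

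Pitpnb, a phosphatidylinositol transfer protein, was in 10 of 10 Glp1r cells at 25.2 to 144 RPKM (median 48.2) and in 7 of 15 others (median 9.12, highest 117). Gucy1b3, the β subunit of the soluble guanylyl cyclase that senses nitric oxide, was in 9 of 10 cells at a median of 36.0 RPKM, against 5 of 15 others at 0.560. It missed the level in cell 34 alone, at 4.45 RPKM, and the highest value of all, 157 RPKM, was in a cell without Glp1r. Kcna3, the voltage-gated potassium channel Kv1.3, was in 8 of 10 Glp1r cells and 4 of 15 others, with medians of 37.0 and 0 RPKM. Lingo3, a leucine-rich repeat membrane protein, was in 6 of 10 cells and in cell 25 alone among the 15, there at 77.9 RPKM.

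The rest of the 15 genes highest by points had varied roles. Clpx, the unfoldase of a mitochondrial protease, was in 9 and 5 cells. The mitochondrial rRNA methyltransferase Rnmtl1 and the isoleucyl-tRNA synthetase Iars were each in 7 and 2. Ints3 of the Integrator complex was in 8 and 4, and the lysosomal enzyme Idua and the junction protein Plekha7 in 6 and 1 each. The remaining pair are unnamed transcripts with Rik symbols. Their differences in points ran from 53.3 to 56.7. The uridylyltransferase Zcchc6, the poly-ADP-ribosylating enzyme Tnks and the long non-coding RNA Miat, singled out after their values were seen, were each in 5 of 10 and 0 of 15 cells, exactly 50 points. As with Morc2a, these met the 3-cell filter through Glp1r cells alone. Whether several of these genes were past the rule depended on the cells and the level used. Pitpnb, Gucy1b3, Lingo3, Iars and Idua fell short of 50 points without the Lhx1 cells, Gucy1b3, Lingo3, Ints3 and Idua without the cells low in Malat1, and Rnmtl1, Ints3 and Plekha7 without the Sst cells. At 20 RPKM Mtfmt, Cit, Clpx, Iars, Ints3, Idua and Plekha7 fell short, at 1 RPKM Cit, Pitpnb and Ints3, and at 5 RPKM Pitpnb and Ints3, and Gucy1b3 did so when cells were rescaled to the same sum. Tnks and Miat fell short without the Lhx1 cells and at 1 RPKM, and Miat at 5 RPKM as well. Zcchc6 fell short with Glp1r cells taken from 50 RPKM. Zcchc6, Tnks and Miat all fell short at 20 RPKM. Morc2a and Kcna3 stayed past the rule under each of these settings. The settings recut the same values that picked these genes, so they lend no separate support. By overlap of cells, as the Jaccard index of the cells holding a gene with the Glp1r cells, the closest genes were Morc2a at 0.70, Fgfr1 at 0.667, Gucy1b3, Mtfmt, Clpx and Cit at 0.60 and Pitpnb at 0.588, over 25 cells.

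The genes lowest by points were each held by a minority of the Glp1r cells or by none. Kmt2e, a SET-domain protein of chromatin, was in all 15 other cells at 10.3 to 51.2 RPKM (median 24.2) and in 3 of 10 Glp1r cells, 4, 29 and 32, at 32.4, 16.1 and 12.2 RPKM. The other 7 Glp1r cells held 0 to 9.65 RPKM, of which cell 11 alone came near the level. The difference of -70.0 points stayed past the rule at 1, 5 and 20 RPKM as well. Lyrm2, a mitochondrial LYR-motif protein, was likewise in all 15 other cells (14.4 to 115 RPKM) and in 4 of 10 Glp1r cells, 1 of which, cell 43, had the highest value of all at 212 RPKM. Rchy1, a RING ubiquitin ligase, was in 2 of 10 against 13 of 15 cells, with medians of 0.685 and 39.7 RPKM, and its highest value, 82.7 RPKM, was in Glp1r cell 32.

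Stx1a, the syntaxin of synaptic vesicle fusion, was in 3 of 10 Glp1r cells (9, 11 and 29, at 142, 61.7 and 12.4 RPKM) and in 13 of 15 others at a median of 86.5 RPKM, a difference of -3.83 in mean log2(RPKM + 1). Nxph1, a secreted ligand of α-neurexins, was in cell 34 alone among Glp1r cells, at 44.4 RPKM, and in 10 of 15 others, up to 204. Mt1, a metallothionein that binds zinc and copper, was in 2 of 10 cells (11 and 29) and 12 of 15, with medians of 0 and 41.9 RPKM. Nmral1, an NADPH-binding protein, was in cell 4 alone among Glp1r cells and in 11 of 15 others. Dgkb, a diacylglycerol kinase, was in 2 and 11 cells, and Stau2, which carries mRNA into dendrites, in 4 and 14. The splicing factor Prpf31 was in 3 and 13, the mitochondrial RNA methyltransferase Nsun4 in 1 and 10, Aagab in 2 and 11, and Coq10a and Sh3bgrl in 4 and 14 each. AK045970, a transcript named by its clone, was in 0 and 9 cells. Nxph1, Nsun4 and Aagab fell short of 50 points without the Lhx1 cells, Stau2, Coq10a and Sh3bgrl without the Sst cells, and Stx1a, Mt1, Stau2 and Prpf31 with Glp1r cells taken from 50 RPKM. Another detection level took out Rchy1, Coq10a, Sh3bgrl, AK045970 and Nsun4 at 1 RPKM, Sh3bgrl and Nsun4 at 5, and Stau2, Prpf31, Nsun4, Aagab, Coq10a and AK045970 at 20. Kmt2e, Lyrm2, Nmral1 and Dgkb stayed past the rule under each of these, although at 1 RPKM Lyrm2, like Kmt2e, was at exactly 50 points. These settings too recut the values that picked the genes, so they lend no separate support. Of the 9782 genes looked at, 260 were held by no Glp1r cell. All 260 met the 3-cell filter through the other cells alone, which fixed the direction of their differences. Of the 260, 6 were in at least 7 of the others: AK045970, Cmc1, Plec, Nln, Acy1 and Galk1.

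The relatives of the receptor were few in these cells. Gcg, the precursor of GLP-1 itself, was at 0 in all 25 cells. Of the listed ligand and receptor genes, 3 of 12 reached the level in 3 cells, and none was past either rule (median -3.33 points). Over all genes 0.235% to 1.11% were past one. Adcyap1r1, the PACAP receptor of the same class, was the common one, in 6 of 10 Glp1r cells (median 22.3 RPKM) and 12 of 15 others (median 40.9). Ramp3, an accessory protein that alters the ligand choice of class B receptors, was in Glp1r cells 4, 11 and 14 at 55.0, 10.7 and 91.9 RPKM and at 0 in all other cells, a difference of 30.0 points. Ramp3 met the 3-cell filter through Glp1r cells alone, which fixed the direction of this difference. Ramp2 was in 1 and 2 cells, Ramp1 in 1 and 1, and the GLP-2 receptor Glp2r in 1 and 1, with 16.3 RPKM in cell 32. The glucagon receptor Gcgr was in 0 and 1 cells, and the GIP receptor Gipr, Vipr1, Vipr2 and the GLP-1-cleaving protease Dpp4 were in none.

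Core genes of the cyclic AMP pathway were read in every cell. The α subunit gene of Gs, Gnas, the catalytic subunits of protein kinase A, Prkaca and Prkacb, and the regulatory subunits Prkar1a and Prkar1b were in all 25 cells, with Gnas at medians of 117 and 122 RPKM. Of 36 genes looked at, none was past either rule, where 0.235% to 1.11% of all genes were, with a median of 0 points and 0.26 on the log2 scale. Adcy3, an adenylyl cyclase, came closest, in 8 of 10 Glp1r cells (median 47.7 RPKM) against 8 of 15 others (median 13.2), or 26.7 points, and just short of 2 on the log2 scale. The regulatory subunit Prkar2b was in 7 and 7 cells. Among phosphodiesterases, which break cyclic AMP down, Pde4a was in 4 and 2 cells and Pde1a in 4 and 10, while Pde2a was in 8 and 12. Pde3b, a member that insulin is known to regulate, was in 1 and 1.

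Other genes of the FGF receptor family were read in few cells or none. Fgfr3 and Fgfr4 reached the level in no cell, Fgfr2 was in 1 Glp1r cell and no other, and Klb, the gene of β-klotho, was in none and had 0.650 RPKM in cell 9 at most. Kl, encoding α-klotho, was in 2 and 1 cells. Of 8 receptor and co-receptor genes looked at, Fgfr1 alone was past a rule. Over all genes 0.327% were higher by the detection rule and 0.961% by the level rule. The heparan sulfate carriers Sdc2 and Sdc3, which bind FGFs, were in 9 and 14 and in 6 and 12 cells, and Gpc1 in 3 and 6. Of the ligand genes, Fgf1 was in 3 and 2 cells, and Fgf12, Fgf13 and Fgf14, which stay inside the cell and act on sodium channels, were in 5 and 8, 5 and 8, and 2 and 7.

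Downstream of the receptor, 1 of 32 genes looked at was past a rule, and it was lower. Over all genes 1.11% were lower by the level rule and 0.961% higher. Frs3, an adaptor that docks on FGF and Trk receptors, was in 2 of 10 Glp1r cells (29 and 32, at 19.3 and 55.9 RPKM) and in 9 of 15 others (median 30.8), a difference of -40.0 points and -2.05 on the log2 scale, past the level rule only. Its sister Frs2 was in 0 and 2 cells. Grb2 was in 9 and 15, and Araf and Map2k1 in all cells. The MAP kinase Mapk3 and the phospholipase Plcg1 were each in 7 of 10 and 6 of 15 cells, while Sos1, the Ras exchange factor, was in 1 and 7 and the MAP kinase phosphatase Dusp4 in 0 and 4. The median of these 32 genes was 0 points.

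**Figure D3:**
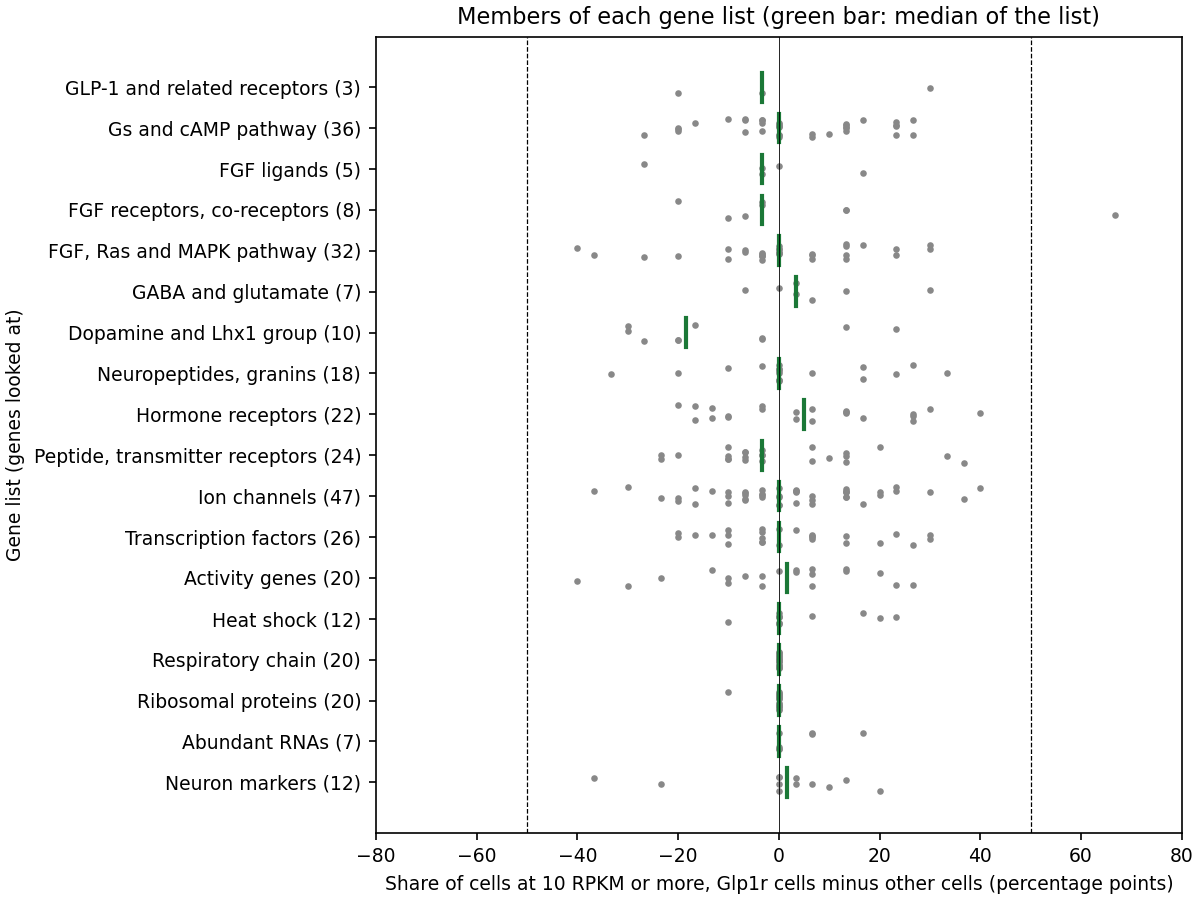
Each grey point is a gene, placed by the difference in the share of cells at 10 RPKM or more (percentage points, Glp1r cells minus others) in the row of its list; the green bar is the median of the list and the number in brackets the genes looked at. The medians lie at or near 0 except in the dopamine and Lhx1 row at -18.3, and Fgfr1, at 66.7, is the only listed gene beyond a dashed 50-point line.

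Over all lists, 333 of 555 genes reached the level in at least 3 cells. Of the 333, 1 was past the detection rule, Fgfr1 (0.300%, beside 0.327% over all genes), and none lower. By the level rule 3 were higher (Fgfr1, Gal and Sstr1) and 3 lower (Frs3, Penk and Npas4), 0.901% each, beside 0.961% and 1.11% over all genes. The listed genes were thus past the rules about as often as genes at large.

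The Glp1r cells held genes of GABA synthesis. Gad1, a glutamate decarboxylase, was in all 10, at 66.7 to 133 RPKM (median 81.7), and in 13 of 15 others (median 89.6). Gad2 was in 8 and 11 cells and the vesicular GABA transporter Slc32a1 in 4 and 6. No Glp1r cell held the vesicular glutamate transporters Slc17a6 or Slc17a8, each of which was in 2 other cells. Slc1a1, a glutamate uptake carrier, was in 7 of 10 and 6 of 15 cells.

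Genes of dopamine neurons differed in either direction, and none was past a rule, where 0.235% to 1.11% of all genes were. Th, the rate-limiting enzyme of dopamine synthesis, was in cells 11 and 43, at 354 and 248 RPKM, and in 6 of 15 others. Lhx1 was in cell 11 alone of the Glp1r cells, which also held Slc18a2, the vesicular monoamine transporter, at 197 RPKM, whereas cell 43 listed both at 0. Slc18a2 was in 2 and 7 cells. The 10 genes of this list that were looked at had a median of -18.3 points and -1.01 on the log2 scale, beside 0 and -0.01 over all genes, and Gch1, which makes the cofactor of Th, was in 5 and 4 cells. Of the cells with Th, all but cells 1 and 43 also held Lhx1.

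With the granins (Scg2, Chga, Chgb, Scg3 and Scg5) and Vgf left out, the leading gene of the neuropeptide list differed between Glp1r cells. It was Sst in cells 6 and 9 (786 and 1577 RPKM), Cartpt in cells 29 and 32 (504 and 262), and Cbln4 in cell 2 (86.8), Pnoc in cell 4 (136), Ghrh in cell 11 (60.5), Trh in cell 14 (109), Npy in cell 34 (208) and Pomc in cell 43 (232). A Glp1r cell held 2 to 7 of the listed peptide genes (median 5.5), and another cell 1 to 7 (median 4). The list includes Cbln1, Cbln2 and Cbln4, of a family of synapse organisers, so they enter these counts. Without them Pnoc, at 70.6 RPKM, would lead in cell 2. The melanocortin precursor Pomc was in 5 of 10 Glp1r cells and 5 of 15 others, highest in Glp1r cells 29 (481 RPKM) and 43 (232), against at most 70.2 RPKM in the others. Cartpt was in 5 and 5 cells, and Agrp, the melanocortin antagonist, in 5 and 4, at no more than 50.6 RPKM. Npy was in Glp1r cells 29 and 34 and reached at most 1.67 RPKM in the others.

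Gal and Penk were the 2 genes past the level rule among 18 genes looked at in the neuropeptide list. Over all genes 0.961% were higher by that rule and 1.11% lower. Gal, encoding galanin, was in Glp1r cells 6, 9, 29 and 32 at 449.8, 144, 12.9 and 49.5 RPKM, and in cell 10 alone among the others, at 174, a difference of 2.31 on the log2 scale and 33.3 points. Penk, the enkephalin precursor, went the other way, in Glp1r cells 14 and 43 (59.6 and 140.1 RPKM) and in 8 of 15 others up to 408, a difference of -2.64 and -33.3 points. Cbln4, a secreted synapse organiser, was in 8 of 10 and 8 of 15 cells (medians 81.1 and 15.0 RPKM). Chga, encoding the dense-core granule protein chromogranin A, was in all 25 cells, but at 19.4 to 337 RPKM (median 124) in Glp1r cells and 186 to 492 (median 254) in the others.

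**Figure D4:**
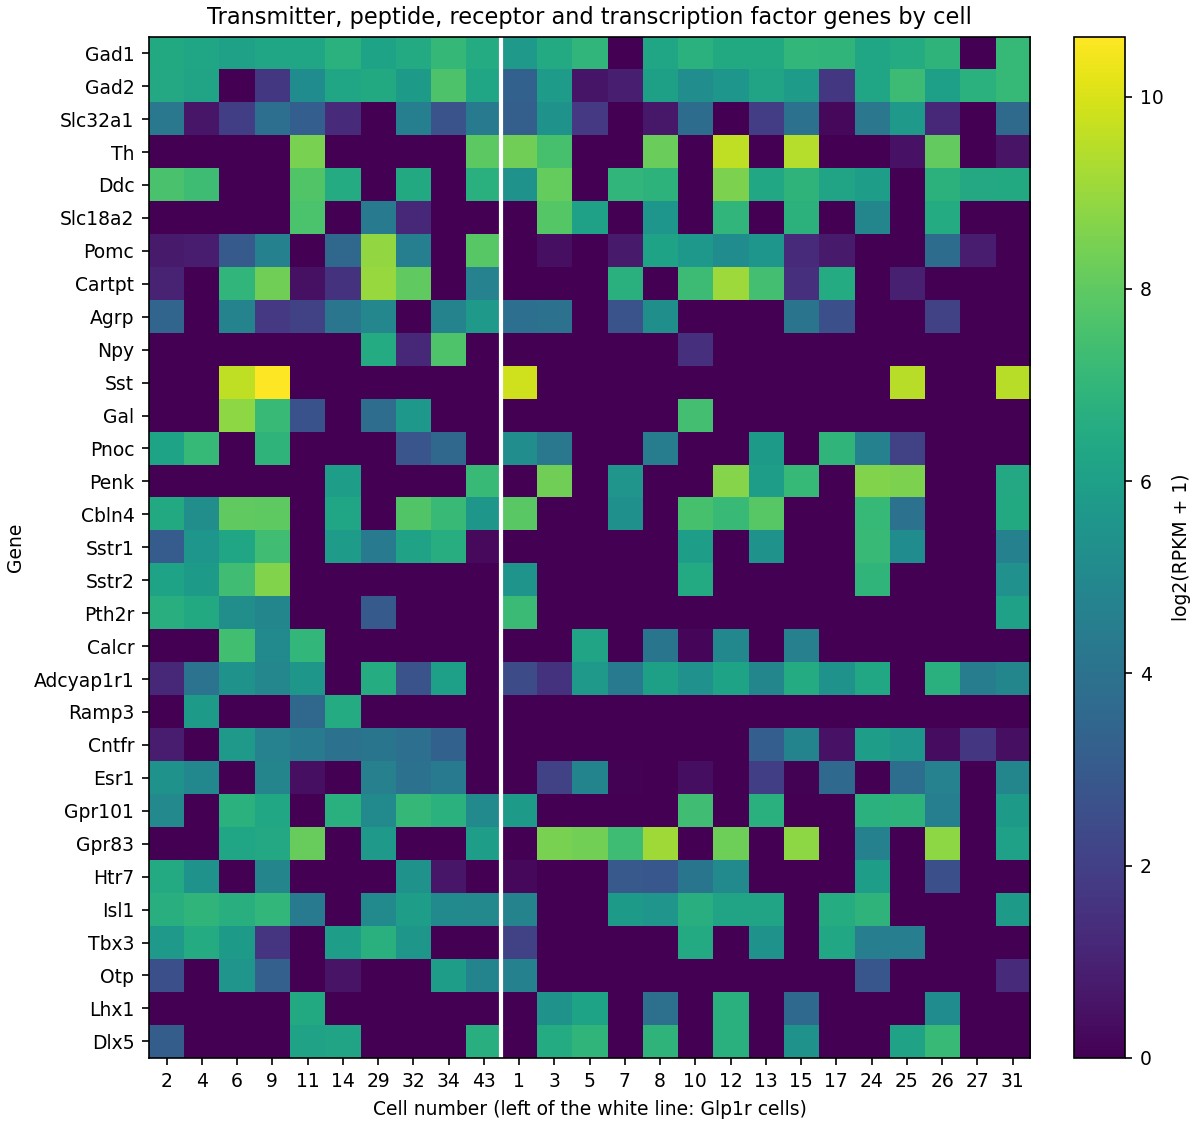
Heat map of log2(RPKM + 1), by colour, for transmitter, peptide, receptor and transcription factor genes (rows) in each of the 25 cells (columns), with the 10 Glp1r cells left of the white line. Gad1 fills every column on the left, while peptide genes such as Sst, Npy, Gal and Pomc light up in different columns, and Ramp3 is at 0 in all columns on the right.

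Receptors for other signals were read in subsets of the Glp1r cells. Sstr1, a somatostatin receptor, was in 7 of 10 Glp1r cells (median 51.5 RPKM) and 5 of 15 others (median 0), a difference of 2.66 on the log2 scale. Cells 2, 4, 6 and 9 shared Sstr2 (71.0, 54.9, 165 and 391 RPKM) and the parathyroid hormone 2 receptor gene Pth2r (101, 86.4, 37.4 and 28.6). No other Glp1r cell reached the level for either, and of the cells without Glp1r, 1 and 31 held both. Calcr, the calcitonin receptor and a class B partner of RAMP proteins, was in Glp1r cells 6, 9 and 11 (171, 32.2 and 131 RPKM) and in 4 others. Of these, cell 11 alone also held Ramp3. The orphan receptor Gpr101 was in 8 of 10 and 7 of 15 cells. Cntfr, the receptor of ciliary neurotrophic factor, was in 6 and 3, and its signalling partner Il6st in 6 and 5. Esr1, an oestrogen receptor, was in 6 and 5, Mchr1, for melanin-concentrating hormone, in 3 and 8, and the vasopressin receptor Avpr1a in 1 and 5. Lepr, for leptin, was highest in cell 29, at only 2.73 RPKM. The 22 hormone receptor genes looked at had a median of 5.00 points, and the 24 peptide and transmitter receptor genes one of -3.33.

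Of 64 listed transcription factors, 26 reached the level in at least 3 cells, and 12 were at 0 in every cell. Isl1, a LIM homeodomain factor of arcuate peptide neurons, was in 9 of 10 Glp1r cells (all but cell 14) and 9 of 15 others. Tbx3 was in 6 and 5 cells and the hypothalamic factor Nkx2-1 in 6 and 6. Otp was in Glp1r cells 6, 34 and 43 (45.8, 60.5 and 27.1 RPKM) and 1 other, and Pou2f2 in cells 9, 11 and 14 (39.5, 17.8 and 18.5 RPKM) and at most 7.08 RPKM among the 15. Pou2f2 met the 3-cell filter through Glp1r cells alone, which fixed the direction of its difference. None of the 26 was past a rule, where 0.235% to 1.11% of all genes were, and their median was 0 points.

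Among the 47 ion channel genes looked at none was past a rule, and among the 20 activity genes looked at 1 was. By the level rule 0.961% and 1.11% of all genes were, higher and lower. The ion channel list lacks the potassium channel gene Kcna3, which was past both rules, at 53.3 points and 2.86 on the log2 scale. Kcnk2, the two-pore potassium channel TREK-1, was in 6 and 3 cells, Scn9a in 9 and 8, Gria3 in 7 and 6, and the sodium channel Scn8a in 1 and 7. The activity gene was Npas4, which neurons switch on with calcium entry, lower by the level rule and in 4 of 10 Glp1r cells (6, 9, 11 and 34, at 40.0 to 93.9 RPKM) and 12 of 15 others (median 31.1), a difference of -2.08. Fos and Egr1 were in 10 of 10 Glp1r cells and in 14 and 15 of 15 others, so these immediate early genes were read in nearly every cell of both sets. Btg2 was in 3 and 9 cells and Atf3 in 4 and 2. Among neuron markers Rbfox3, encoding NeuN, was in 5 of 10 and 13 of 15 cells. The 20 respiratory chain genes and 20 ribosomal protein genes had medians of 0 points and of -0.08 and 0.01 on the log2 scale.

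By whole profile, Glp1r cells were on the median slightly less like each other than like the rest. Over 9782 genes without Glp1r, the Pearson correlation of log2(RPKM + 1) between 2 Glp1r cells had a median of 0.466 (0.415 to 0.519, 45 pairs). Between 2 other cells it was 0.482 (0.416 to 0.544, 105 pairs), and between a Glp1r cell and another cell 0.476 (0.399 to 0.543, 150 pairs). These are correlations across genes, pairs share cells, and depth differs between cells, so the values only describe. The cell most like a Glp1r cell was itself a Glp1r cell in 1 of 10 cases, although 9 of the 24 candidates were. It was cell 1, which lacks Glp1r, in 6 of 10 cases, and cell 1 was also the nearest for 6 of the 15 others.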

How the data were processed

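RNA was measured by Smart-Seq2, which amplifies whole polyadenylated transcripts without molecular identifiers or strand, in 25 hand-picked cells; libraries were made with Nextera XT, per the labels' protocols. The deposited table lists every gene in every cell, in RPKM by the form of its values. Per the submitters' processing notes, featureCounts 1.4.6, TopHat2 2.0.14, SAMtools 0.1.19, Picard 2.5.0 and bcl2fastq were used, with GRCm38 and mm10 as builds; the role of each tool and the annotation are not given in the sources used. Of 33082 rows, 26 whose names had become dates were dropped, and of 755 repeated symbols the row of highest sum stayed, leaving 30903. Exon lengths came from GENCODE M21 for 22715 symbols, and depth per cell from the step that 1 read makes among low values; summed reads came to 1.38 to 1.46 times that depth, so read numbers are estimates. At a given RPKM a long gene has more reads behind it.

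A gene was looked at where it reached 10 RPKM in at least 3 cells, and Glp1r was left out of every count. Intervals cover counting error only. The members, gene lists and rules were chosen with earlier results of these cells known. Named were Glp1r and Fgfr1, the 15 genes highest and the 15 lowest by difference in share, the 10 with the highest Jaccard index, from each list the members past a rule and up to 4 further, the receptor's relatives and each leading peptide; any other gene, such as Pth2r, Sstr2, Calcr or those of the heat map, was singled out after its values were seen. Cell numbers are those of the labels. The alternatives left out cells, rescaled cells to 1 sum, moved the detection level (1, 5 and 20 RPKM) or the pseudocount (0.1 and 10), or took Glp1r cells from 50 RPKM. Python 3.11.15 with numpy 2.4.6, pandas 2.3.3 and scipy 1.17.1 was used; the depth and counting steps were tested on simulated data. A few genes named by this rule are not reported here.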

Additional observations from a re-analysis of the deposited data

How the results depend on the processing

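All 25 cells come from 1 pooled sample, so no alternative carries a test, and settings with fewer cells let fewer cells decide a gene. No paired analysis was possible because the result comes from no test and the cells carry no pairing. Fgfr1 kept its direction under each alternative run. Leaving out the cells with low Malat1 (8 Glp1r cells against 11) gave 60 higher and 75 lower genes by the detection rule and 238 lower by the level rule. Leaving out the Lhx1 cells (9 against 9) gave 61 lower by detection and 174 and 233 by level, and leaving out the Sst cells (8 against 12) 104 and 50 by detection and 193 and 182 by level. Glp1r cells from 50 RPKM (6 against 15) gave 120 and 80 by detection and 265 and 206 by level. Detection at 20 RPKM gave 15 higher genes. A pseudocount of 0.1 gave 694 and 572 by level and one of 10 gave 0 and 1. The latter put the median correlations at 0.568 within Glp1r cells, 0.586 within the others and 0.582 between. Without 1 cell at a time, detection gave 24 to 38 higher and 18 to 30 lower genes and level 97 to 141 higher and 93 to 173 lower, the last without cell 29. Of the 32 higher and 23 lower genes, 18 and 22 stayed without the low-Malat1 cells, 17 and 16 without the Lhx1 cells, and 9 and 9 at 20 RPKM. The cause of these moves was not tested.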

Other observations

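Some Glp1r cells carried hormone or receptor genes that no other Glp1r cell held at 10 RPKM, singled out here after their values were seen. Cell 14 held Gnrh1, encoding gonadotropin-releasing hormone, at 40.7 RPKM, and Ghsr, the ghrelin receptor, at 10.5, both at 0 in every other cell of the 25. Cell 29 held the dopamine receptors Drd1 and Drd2 at 31.4 and 26.2 RPKM and the neuropeptide Y receptor Npy1r at 135. Among the cells without Glp1r, Drd1 was at 0, while Drd2 was higher in cells 15 and 26, at 82.4 and 71.9 RPKM. Npy1r was in 3 of them, at up to 23.2 RPKM. Cell 43 held Avp, encoding vasopressin, at 219 RPKM beside Pomc at 232 and Th at 248. Each value comes from 1 cell and has no replicate.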
